A study of Mus musculus with 9 samples.

Results

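The data set compared here consists of 6 of the 9 RNA sequencing libraries of a study of mouse bile duct organoids, chosen by their labelled group. They are 3 libraries of tdTomato-negative cells sorted from organoids treated with R-spondin 1 (Rspo1) and 3 libraries of tdTomato-negative cells sorted from untreated organoids, called Rspo1-negative and untreated below. Organoids are epithelial cultures that grow from duct cells in a gel. All came from a single male mouse of mixed genetic background with the genotype Axin2CreERT2+/-; R26-LSL-tdTom+/-. In this genotype Axin2 drives a Cre recombinase that works only in the presence of 4-hydroxytamoxifen (4-OHT), and Cre switches on the red fluorescent protein tdTomato for good. In both groups a phase of expansion (2 to 4 days) preceded differentiation (11 days), and both groups received 3 uM dexamethasone and 500 nM 4-OHT in the last 24 h. Rspo1 at 100 ng/ml was present in that time in the treated group only. Its replicates 1, 2 and 3 are the cultures of passages 5, 6 and 10, and the untreated group has the same 3 passages. The remaining 3 libraries, of tdTomato-positive cells from Rspo1-treated organoids of the same passages (Rspo1-positive), entered the fit and are cited only where they show how reporter-negative cells differ. Every library is thus a culture of 1 animal, and no library holds tdTomato-positive cells of untreated organoids. In the fit with passage, p-values measure the spread that is left between cultures of that line once passage is taken out, shared over all 9 libraries. They do not measure a spread between animals. Organoids were dissociated into single cells with TriplE for the sort, and cells went into expansion medium or Trizol, which is not given for each library.

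R-spondins are secreted proteins that bind the receptors Lgr4, Lgr5 and Lgr6 and the membrane ubiquitin ligases Rnf43 and Znrf3. These ligases remove Frizzled and Lrp5 or Lrp6, the receptors for Wnt ligands, from the cell surface, and R-spondin binding takes the ligases away. More Wnt receptor then remains, beta-catenin is spared from the destruction complex of Axin, Apc and Gsk3b, and it switches on target genes together with factors of the TCF/LEF family. In the liver, Wnt and R-spondin signals are known for zonation of hepatocytes around the central vein and for growth of injured ducts, and R-spondin 1 is a usual component of the medium in which duct organoids are expanded.

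Rspo1-treated cells that lacked the reporter had more RNA of several Wnt target genes than untreated cells. Axin2, Sp5 and Tcf7 were each higher in all 3 passages, with log2 fold changes of 2.11 to 4.98. Ascl2 and Lgr5 were higher too, but neither would have passed the count filter without the groups in which they are high. Their rises are descriptions. Genes of DNA replication and mitosis rose along with them, 39 of 48 and 42 of 55 tested. The 3 trefoil factor genes and the mucin genes Muc4 and Muc13 fell, with 12 of 25 tested mucosal genes lower and 2 higher. Of 28 tested transcription factors of liver and duct 14 fell and 3 rose, with Onecut2, Onecut1 and Hnf4g among those that fell. Over all genes tested, 15.5% were higher and 20.0% lower. Genes with GC-poor and long transcripts were lower as a class in Rspo1-negative cells, so each result is given both as fitted and after a correction for transcript GC content and length.

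By edgeR's quasi-likelihood test on the deposited counts, with passage in the model and Benjamini-Hochberg adjustment at 0.05, 6039 of 17011 tested genes differed between Rspo1-negative and untreated cells (35.5%). Of these, 2643 were higher (15.5% of genes tested) and 3396 lower (20.0%) in Rspo1-negative cells, so that higher genes made up 43.8% of the calls. Upper-quartile scaling turned that split around, with higher genes at 54.2% of 6595 calls. Of the 6039 genes, 5900 (97.7%) moved the same way in all 3 passages, against 58.1% of all genes tested. A test with passage in the model favours such genes, so this agreement is largely set by the choice and is a description. Leaving out Rspo1-negative passage 5 or 10, or untreated passage 5 or 10, took the calls to 3269, 3506, 3814 and 3933. The values of the 3 untreated and 3 Rspo1-negative libraries did not overlap in 6183 genes (36.3%). The 6 libraries held 23423979 to 37351448 counts, and their first principal component, with 44.6% of the variance, placed the untreated libraries between -51.3 and -31.3 and the Rspo1-negative ones between 26.8 and 59.2.

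The fold change of a gene followed the composition of its transcript. Across 17001 genes, which are not independent replicates, the rank correlation of the log2 fold change with transcript GC content was 0.518, and with transcript length it was -0.321. In the bin of 3401 genes with the lowest GC content (23% to 44.4%) the median change was -0.66 on the log2 scale, with 51.7% of its genes called lower and 2.47% called higher. In the bin of 3400 genes with the highest (56.0% to 83.1%) it was 0.27, with 3.24% called lower and 29.7% called higher. The slope was present in each passage, with correlations of 0.389, 0.507 and 0.445 for passages 5, 6 and 10. The deviation of each library from the mean of all 9 correlated with GC content at 0.306 to 0.537 in the Rspo1-negative libraries, at -0.312 to -0.157 in the untreated ones and at -0.430 to -0.176 in the Rspo1-positive ones. What separates the libraries along GC content was not tested.

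**Figure D1:**
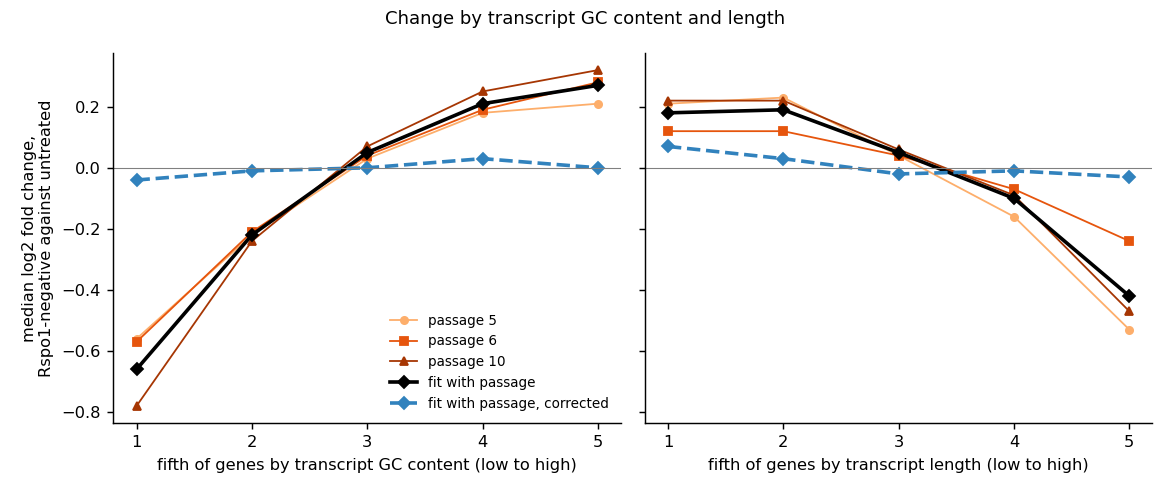
Median change, Rspo1-negative minus untreated on the log2 scale (vertical axis), in 5 equal bins of the genes tested, ordered by transcript GC content (left) or transcript length (right), for each passage, for the fit with passage and for the fit with the correction. The median runs from -0.66 to 0.27 over the bins of GC content and from 0.18 to -0.42 over those of length, and the corrected medians lie between -0.04 and 0.07.

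When a smooth offset for GC content and length was fitted in each library beside passage, 3203 genes differed (18.8%), 1549 higher (9.11%) and 1654 lower (9.72%). The correlation with GC content was then 0.025. A total of 2337 genes (13.7%) were called the same way with and without the correction, 985 higher (5.79%) and 1352 lower (7.95%). Of them 2312 (98.9%) moved the same way in all 3 passages, which the choice again favours. The 2337 genes are said below to be called in both fits. Among them 379 higher and 743 lower genes changed at least 2-fold, and 72 higher and 82 lower genes at least 4-fold. Of 744 genes in 23 lists that describe pathways and cell types, 603 had enough counts to be tested, 107 fell below the count filter and 34 symbols were not matched. A correction of this kind also takes away any real change that goes along with GC content, so a call lost under it is not shown to be absent.

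**Figure D2:**
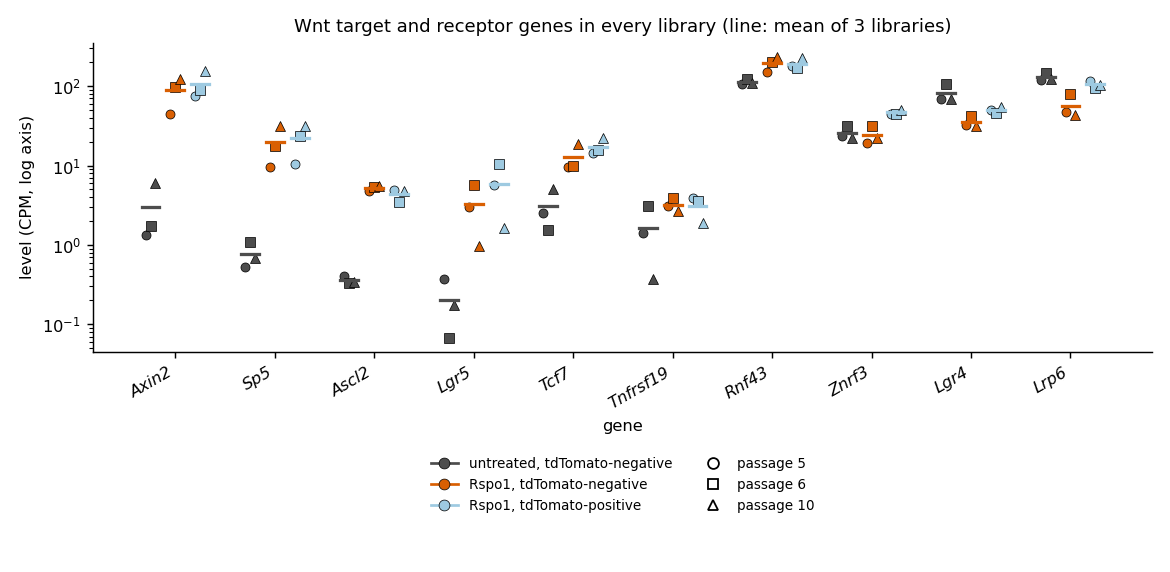
Level in CPM (log axis) of 10 Wnt target and receptor genes in each of the 9 libraries, with the mean of each group of 3 as a line and passages as symbols. For Axin2, Sp5, Ascl2, Lgr5, Tcf7 and Rnf43 all 3 Rspo1-negative libraries lie above all 3 untreated ones, and for Lgr4 and Lrp6 all 3 lie below.

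Axin2 (ENSMUSG00000000142, GRCm38 chromosome 11, 108920349 to 108950783, plus strand), the scaffold of the destruction complex and a feedback target of Wnt signalling, was examined first because its promoter drives the Cre. Its level in CPM, counts scaled to library size, was 1.32, 1.74 and 5.96 in the untreated libraries of passages 5, 6 and 10 and 44.4, 97.4 and 124 in the Rspo1-negative ones. Every treated library exceeded every untreated one, from 43 to 207 counts in the untreated and 1668 to 2933 in the Rspo1-negative libraries. The log2 fold change was 4.98 (standard error 0.27, edgeR adjusted p = 1.58e-05) and 4.90 after the correction. In bulk samples such as these, a change in the number of cells that express a gene and a change in RNA per cell cannot be told apart. The Rspo1-positive libraries had 75.7, 88.7 and 155 CPM, a log2 difference from Rspo1-negative cells of 0.31 (adjusted p = 0.280 by edgeR), so a difference in Axin2 between the gates was not detected. Untreated passage 10 had the highest Axin2 level of its group and the smallest rise, 4.37 against 5 and 5.76.

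The list of 35 Wnt target and feedback genes had 21 members with enough counts for the test. Of these, 8 were higher and 3 lower, 8 and 2 in both fits, with a median log2 fold change of 0.31 where all genes tested had -0.01. The shares of all genes tested were 15.5% higher and 20.0% lower, 5.79% and 7.95% in both fits. Sp5, a zinc finger transcription factor, had 0.523, 1.10 and 0.691 CPM in the untreated and 9.66, 17.8 and 31.2 CPM in the Rspo1-negative libraries, with no overlap (log2 fold change 4.59, standard error 0.26, edgeR adjusted p = 1.58e-05). Ascl2, a transcription factor known from intestinal stem cells, had 0.40, 0.334 and 0.345 CPM against 4.82, 5.39 and 5.55 CPM and was nearly level within each group (log2 fold change 3.86, standard error 0.26). Its untreated libraries held 10 to 13 counts. Without the groups in which it is high, Ascl2 would not have passed the count filter. Lgr5, the R-spondin receptor that marks many Wnt-dependent stem cells, stayed scarce but rose in every passage. It had 0.369, 0.0669 and 0.173 CPM in untreated cells, which rests on 2 to 12 counts, and 3.03, 5.76 and 0.974 CPM in Rspo1-negative cells, from 23 to 140 counts (log2 fold change 3.76). Lgr5 passed the count filter only through the groups in which it is high, so it had to differ. The values of Lgr5 and Ascl2 are descriptions and their calls are no support for the list. Tcf7, which encodes the TCF1 partner of beta-catenin, had 2.55, 1.54 and 5.09 CPM against 9.69, 9.96 and 18.9 CPM, again without overlap (log2 fold change 2.11).

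The 2 ubiquitin ligases that R-spondins act on behaved differently. Rnf43 had 106, 123 and 109 CPM in untreated and 151, 202 and 235 CPM in Rspo1-negative cells and rose by a log2 fold change of 0.78 (standard error 0.15, edgeR adjusted p = 0.00259). Znrf3 had 23.6, 31.4 and 22.2 CPM against 19.1, 31.6 and 22.1 CPM, groups that overlap almost fully (log2 fold change -0.10, standard error 0.16, edgeR adjusted p = 0.654). In Rspo1-positive cells Znrf3 stood at 45.1, 44.8 and 50.8 CPM, above the Rspo1-negative level by a log2 difference of 0.99 (adjusted p = 0.00105 by edgeR; 0.73 after the correction). Ephb2 (log2 fold change 0.48) and Tnfrsf19 (1.21), both known Wnt targets of the intestine, completed the set of 8. Without passage in the model both lost the call, with adjusted p-values by edgeR of 0.0744 and 0.243. Broader targets did not follow: Ccnd1 had a log2 fold change of 0.33, Myc -0.08 and Cd44 -0.13, none of which passed the test as fitted. After the correction Cd44 (0.46) and Myc (-0.34) passed in opposite directions. Jag1, a Notch ligand, fell from 55.7, 92.8 and 66.9 CPM to 28.6, 45.2 and 34.4 CPM (log2 fold change -0.99), and Bmp4 had a log2 fold change of -0.61 and fell too. Notum, a secreted Wnt inhibitor, had at most 27 counts in a library and did not pass the test.

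Promoter sequences from RefSeq (GRCm38.p6, from 250 bases before to 50 bases after the annotated start) were searched for the core TCF/LEF word CTTTGAT on both strands. It was found in 1225 of 32851 promoter windows (3.73%) and in 2 of the 17 windows that matched 13 of the 21 tested Wnt target genes, those of Sp5 and Tnfrsf19. Of the pericentral genes, Lect2, described below, and Slc1a2 also held it. Slc1a2 has a log2 fold change of -0.17 in the authors' deposited table. The word also stood in windows of other lists, among them Hal of the periportal and Reg3g of the mucosal genes. The windows of Axin2 and Sp5, the 2 targets with the largest rises, and of Lect2 are shown with the word in capitals, each 5′ to 3′ on the strand of its gene. Axin2 is at chr11:108920099-108920398 on the plus strand, Sp5 at chr2:70474673-70474972 on the plus strand and Lect2 at chr13:56548489-56548788 on the minus strand.
Axin2: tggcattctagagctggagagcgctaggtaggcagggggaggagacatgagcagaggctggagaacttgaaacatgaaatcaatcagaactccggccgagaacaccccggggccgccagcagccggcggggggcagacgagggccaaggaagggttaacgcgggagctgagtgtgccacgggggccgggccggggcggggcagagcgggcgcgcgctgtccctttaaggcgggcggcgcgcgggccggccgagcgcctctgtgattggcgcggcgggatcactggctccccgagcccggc
Sp5: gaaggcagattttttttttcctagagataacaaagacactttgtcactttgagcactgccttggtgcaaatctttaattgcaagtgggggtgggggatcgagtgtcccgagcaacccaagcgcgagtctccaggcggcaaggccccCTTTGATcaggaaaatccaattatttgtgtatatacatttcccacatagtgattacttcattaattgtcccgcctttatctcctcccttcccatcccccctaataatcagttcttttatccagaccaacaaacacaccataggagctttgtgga
Lect2: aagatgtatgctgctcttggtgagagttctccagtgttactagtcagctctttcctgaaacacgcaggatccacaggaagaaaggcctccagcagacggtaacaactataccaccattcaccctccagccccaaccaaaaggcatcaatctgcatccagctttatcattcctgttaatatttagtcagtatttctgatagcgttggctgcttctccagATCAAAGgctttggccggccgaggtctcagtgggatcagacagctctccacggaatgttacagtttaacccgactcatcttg
The word starts 104 bases before the annotated start in Sp5 and, as its reverse complement, 32 bases before it in Lect2. The Axin2 window holds no copy, which says only that these letters are not in these 300 bases.

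Among 25 tested R-spondin and Wnt receptors and ligands, 5 were higher and 5 lower, 4 and 3 in both fits, with a median log2 fold change of -0.10 (0.01 after the correction). These shares are near those of all genes tested, 15.5% higher and 20.0% lower (5.79% and 7.95% in both fits), so the list as such did not stand out, and its genes are given singly. Without Rspo1-negative passage 5 or passage 10 the number lower was 3. Lrp5 had 329.6, 374 and 343 CPM in untreated and 456, 589 and 629 CPM in Rspo1-negative cells (log2 fold change 0.67, standard error 0.14, edgeR adjusted p = 0.00420), while its partner in function Lrp6 had 120.2, 148 and 124 CPM against 47.5, 79.0 and 43.2 CPM (-1.23, standard error 0.18; -0.60 after the correction). Lgr4, the R-spondin receptor with broad expression, fell while Lgr5 rose: it had 69.0, 108 and 68.2 CPM against 32.2, 42.2 and 31.1 CPM, with no overlap (log2 fold change -1.21, standard error 0.16, edgeR adjusted p = 0.000399; -0.81 after the correction). Among the Frizzled receptors Fzd5 fell, from 118, 151 and 113 CPM to 40.8, 50.9 and 42.0 CPM (log2 fold change -1.51, adjusted p = 0.000146 by edgeR). Of its exon bases 17.8% are shared with Gm38058. Fzd2 (1.14) and the scarce Fzd9 (2.24) rose. The ligand gene Wnt5b had 0.985, 7.93 and 9.93 CPM against 6.28, 14.7 and 29.6 CPM. It was lowest in passage 5 and highest in passage 10 in both groups, so the groups overlap although each treated library is above its own passage. Its log2 fold change was 1.55, and without passage in the model the adjusted p was 0.209 by edgeR. The direction of Fzd3, whose transcript has 40.3% GC, depended on the correction (-0.60 before and 0.53 after it).

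Components of the destruction complex and its neighbours were called lower more than higher. Of 25 tested, 2 rose and 8 fell, 1 and 6 in both fits, with a median log2 fold change of -0.26 (-0.14 after the correction). All genes tested were 15.5% higher and 20.0% lower, 5.79% and 7.95% in both fits. Apc, the tumour suppressor scaffold, had 81.4, 71.4 and 97.7 CPM in untreated and 23.3, 32.3 and 19.1 CPM in Rspo1-negative cells, a log2 fold change of -1.75 (standard error 0.20, edgeR adjusted p = 0.000208) that was -0.90 after the correction. The kinase gene Gsk3b had -1.15 (-0.55 corrected) and Tnks, whose product marks Axin for degradation, had -1.15 (-0.58 corrected). Tcf7l2, which encodes the TCF4 partner of beta-catenin, had 10.6, 11.2 and 12.3 CPM against 5.27, 5.76 and 5.97 CPM (log2 fold change -1.0), opposite to Tcf7. The gene of beta-catenin itself, Ctnnb1, had a log2 fold change of -0.39 (adjusted p = 0.0652 by edgeR) and did not pass the test. Only the corepressor gene Tle1 rose in both fits, by 0.96. The falls of Apc, Gsk3b, Tnks and Lrp6 shrank with the correction, and their transcripts have 44.3%, 46.1%, 46.8% and 46.0% GC.

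**Figure D3:**
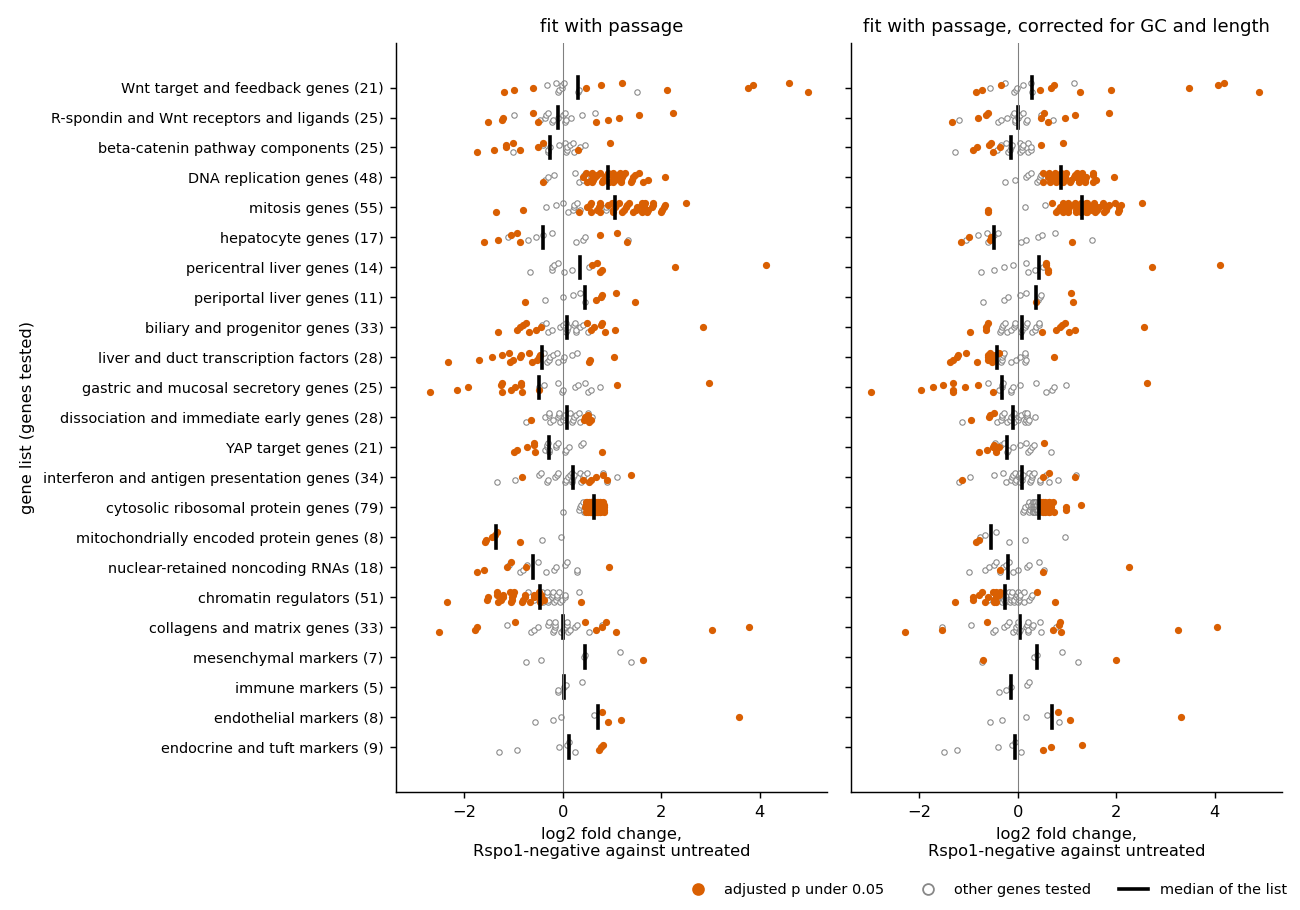
Change of every tested gene of 23 lists, Rspo1-negative minus untreated on the log2 scale, as fitted with passage (left) and after the correction for GC content and length (right). Filled points have an adjusted p under 0.05 and the black line is the median of the list. DNA replication and mitosis genes lie mostly to the right in both panels, with corrected medians of 0.87 and 1.30.

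Reporter-negative cells of treated organoids had more RNA of the replication machinery. Of 48 tested genes 39 were higher and 1 lower, and 36 were higher in both fits, with a median log2 fold change of 0.91 (0.87 after the correction). Among all genes tested 15.5% were higher and 20.0% lower, and 5.79% were higher in both fits. The median of the list was 1.04, 0.49 and 1.08 in passages 5, 6 and 10. Mcm5, a subunit of the replicative helicase, had 19.8, 22.2 and 9.38 CPM in untreated and 101, 50.2 and 63.9 CPM in Rspo1-negative cells (log2 fold change 2.08, standard error 0.24, edgeR adjusted p = 0.000244). All treated libraries were above all untreated ones, and untreated passage 10 was the lowest. The helicase genes Mcm3 (1.47) and Mcm2 (1.27) rose too, as did Uhrf1 (1.73), which keeps up DNA methylation behind the fork, and Cdc45 (1.63), which activates the helicase. Rrm2, a subunit of ribonucleotide reductase, did not pass the test (0.26, adjusted p = 0.210 by edgeR). The 1 gene called lower was Rfc1 (-0.41), a clamp loader subunit, and its corrected value was -0.05.

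Mitosis genes rose as well. Of 55 tested, 42 were higher and 2 lower, 41 and 2 in both fits, with a median log2 fold change of 1.07 (1.30 after the correction). The shares of all genes tested were 15.5% higher and 20.0% lower, 5.79% and 7.95% in both fits. Without passage in the model 20 genes of the list were called higher, in place of 42. The median was 1.19, 0.64 and 1.39 in passages 5, 6 and 10. Iqgap3, a scaffold protein of dividing cells, had 1.23, 6.42 and 2.85 CPM in untreated and 9.58, 20.2 and 25.6 CPM in Rspo1-negative cells (log2 fold change 2.50, standard error 0.29, edgeR adjusted p = 0.000236). Cdk1, the kinase that starts mitosis, had 6.55, 16.7 and 7.48 CPM against 32.4, 30.8 and 37.0 CPM (1.82). Espl1, the protease separase that frees sister chromatids, had 1.32, 4.92 and 2.36 CPM against 6.41, 14.2 and 11.9 CPM (2.01). In each of these genes untreated passage 6 was the highest of its group, and for all 3 it stayed below every Rspo1-negative library. The kinetochore gene Spc24 (2.07), the kinase gene Aurkb (2.00) and Birc5 (1.84), which encodes a further subunit of the Aurora B complex, followed.

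A few widely used proliferation markers did not share the rise as fitted. Mki67 had 9.79, 21.5 and 25.0 CPM in untreated and 13, 39.8 and 21.3 CPM in Rspo1-negative cells, with overlap (log2 fold change 0.36, standard error 0.19, edgeR adjusted p = 0.168). After the correction its log2 fold change was 0.98 (adjusted p = 0.00107 by edgeR). Cenpe (0.01), Cenpf (0.10) and Kif20b (-0.14) did not pass the test either and were called higher after the correction (0.82, 0.99 and 0.78). The condensin gene Smc4 fell, from 24.6, 27.4 and 21.4 CPM to 11.7, 12.3 and 5.46 CPM (log2 fold change -1.35; -0.60 corrected), as did Kif23 (-0.81; -0.60 corrected), which acts in cytokinesis. The gates differed in these genes. In Rspo1-positive cells Mki67 had 147, 279.7 and 232 CPM, a log2 difference of 3.23 from Rspo1-negative cells (adjusted p = 2.85e-05 by edgeR), and 50 of the 55 mitosis genes were higher there in both fits, where 15.3% of all genes tested were called in either direction in both fits, 38.9% as fitted and 22.4% with the correction. For replication genes that number was 16 of 48.

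The start regions of these genes hold known words of cell cycle promoters. The 2 E2F words TTTGGCGC and TTTCCCGC, on either strand, were found in 514 of all 32851 windows (1.56%) and in 12 of the 45 windows that matched 39 of the tested replication genes (26.7%). The CHR word TTTGAA, which shares the run TTTGA with the TCF/LEF word and is known from genes of late cell cycle, was found in 5878 of all windows (17.9%) and in 39 of the 51 windows of 46 mitosis genes (76.5%). Both kinds of match describe these letters and not binding. Mcm5 is shown for its E2F word at chr8:75109259-75109558 on the plus strand, and Iqgap3 at chr3:88081801-88082100 and Espl1 at chr15:102296043-102296342, both on the plus strand, for their CHR words, which are in capitals.
Mcm5: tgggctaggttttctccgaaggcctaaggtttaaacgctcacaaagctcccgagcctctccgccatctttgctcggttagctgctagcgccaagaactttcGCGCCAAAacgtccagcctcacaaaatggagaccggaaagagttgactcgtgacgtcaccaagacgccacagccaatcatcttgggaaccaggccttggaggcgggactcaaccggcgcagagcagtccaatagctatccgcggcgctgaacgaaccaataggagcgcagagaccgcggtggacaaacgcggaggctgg
Iqgap3: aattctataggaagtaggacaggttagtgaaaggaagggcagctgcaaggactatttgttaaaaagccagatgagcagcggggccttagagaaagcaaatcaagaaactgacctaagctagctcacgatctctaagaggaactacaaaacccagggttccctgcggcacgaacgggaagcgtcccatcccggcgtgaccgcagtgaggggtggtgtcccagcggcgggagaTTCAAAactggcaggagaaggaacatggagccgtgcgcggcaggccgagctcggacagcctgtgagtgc
Espl1: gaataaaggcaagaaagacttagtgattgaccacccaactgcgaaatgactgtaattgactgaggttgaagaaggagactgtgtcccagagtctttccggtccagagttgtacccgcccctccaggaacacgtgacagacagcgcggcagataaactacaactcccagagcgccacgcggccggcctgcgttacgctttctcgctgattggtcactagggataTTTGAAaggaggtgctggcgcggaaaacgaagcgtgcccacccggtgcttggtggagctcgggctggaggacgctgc
The E2F word starts 149 bases before the annotated start in Mcm5, as the reverse complement of TTTGGCGC. The CHR word starts 19 bases before the annotated start in Iqgap3, as its reverse complement, and 27 bases before it in Espl1. The word also stands in the windows of Mki67, Cenpf and Kif20b, which did not pass the test as fitted, and of Kif23, which fell.

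Cytosolic ribosomal protein genes moved together. All 79 tested had a log2 fold change above 0, from 0.01 (Rpl23) to 0.84, and 72 of them were higher, 27 in both fits, with a median of 0.63 that was 0.44 after the correction. Among all genes tested 15.5% were higher and 20.0% lower, 5.79% and 7.95% in both fits. Their summed level was 31562, 35596 and 28149 CPM in the untreated and 56147, 40397 and 51084 CPM in the Rspo1-negative libraries. Passage 6 showed the smallest difference. Without Rspo1-negative passage 5, 15 genes of the list were called, and without untreated passage 6, 78 were. In Rspo1-positive cells 43 of the 79 were lower than in Rspo1-negative cells in both fits. Between these gates 15.3% of all genes tested were called in either direction in both fits. The 8 tested protein genes encoded in mitochondrial DNA went the other way, with 6 lower, 2 of them in both fits, and a median of -1.35 (-0.55 after the correction). Their transcripts are GC-poor, with a median of 36.4%. The summed mitochondrial level was 18439, 30224 and 15545 CPM in untreated and 14367, 10093 and 10812 CPM in Rspo1-negative cells.

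**Figure D4:**
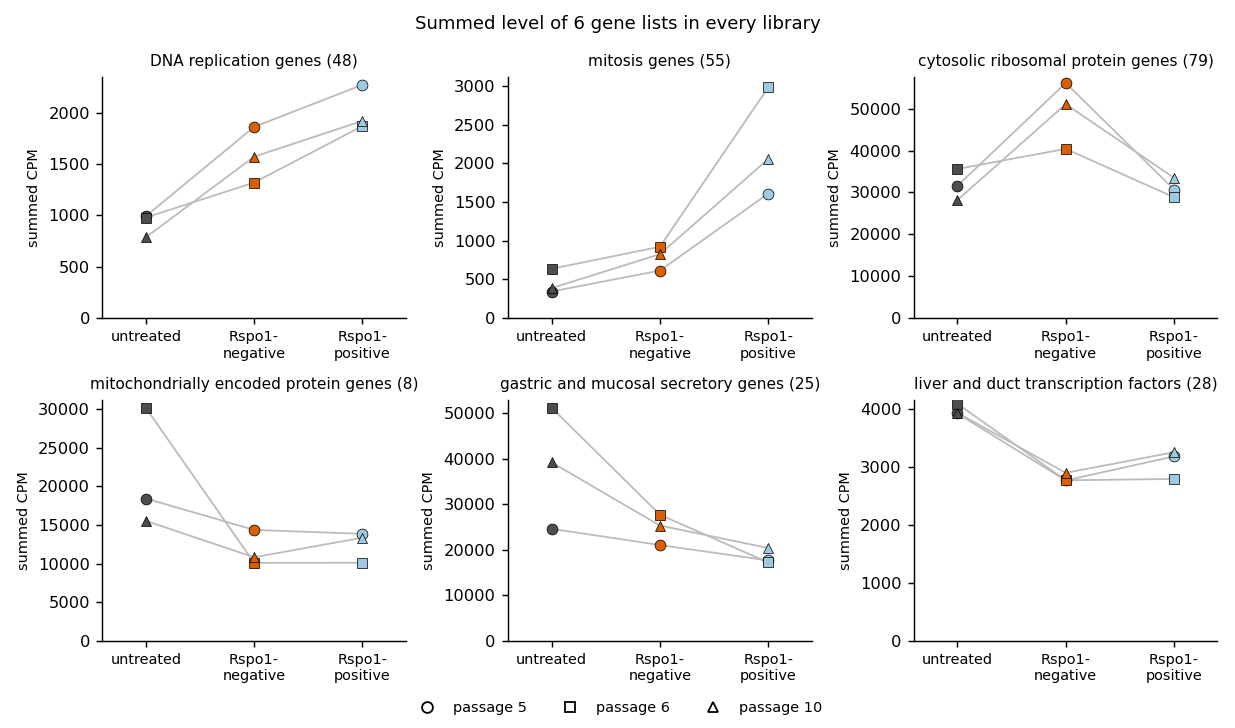
Summed CPM of the tested genes of 6 lists in each of the 9 libraries, with lines joining libraries of the same passage. Replication, mitosis and ribosomal protein genes are higher in the Rspo1-negative than in the untreated library of every passage, and mitochondrial, gastric and mucosal genes and liver and duct transcription factors are lower.

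Mucosal secretory genes were called lower more often than higher. Differentiated duct organoids express stomach-like secretory genes, and 25 of the list of gastric and mucosal genes were tested. Of these 12 were lower and 2 higher, 10 and 1 in both fits, with a median log2 fold change of -0.48 (-0.32 after the correction). Another 11 were not called, 9 of the 25 had a log2 fold change above 0, and the mucin genes Muc5ac (0.76) and Muc5b (-0.48) did not pass the test. Among all genes tested 20.0% were lower and 15.5% higher, 7.95% and 5.79% in both fits. Without untreated passage 6 the number higher was 6, and without passage in the model 7 were lower and 1 higher. The summed level, to which Dmbt1 contributed more than any other tested gene of the list in each of the 6 libraries, was 24583, 51213 and 39192 CPM in untreated and 21006, 27677 and 25299 CPM in Rspo1-negative libraries. Tff3, a trefoil peptide of mucus, had the largest fall of any gene by the naming rule given below: 513, 691 and 485 CPM in untreated against 147, 99.9 and 48.9 CPM in Rspo1-negative cells (log2 fold change -2.70, standard error 0.32, edgeR adjusted p = 0.000241; -2.98 after the correction). Its log2 fold change was -1.81, -2.79 and -3.31 in passages 5, 6 and 10. The other trefoil genes Tff1 (-1.24) and Tff2 (-1.05) fell as well. Of the exon bases of Tff1, 31.4% are shared with Gm15318. Among membrane mucins Muc4 had 452, 253 and 536 CPM against 77.4, 151 and 56.8 CPM (-2.15) and Muc13 17, 25.9 and 62.4 CPM against 4.55, 7.57 and 14.4 CPM (-1.93), and neither pair of groups overlapped. Without passage in the model Muc13 had an adjusted p of 0.0536 by edgeR. Dmbt1, an abundant mucosal defence protein, fell from 10783, 31945 and 24733 CPM to 5719, 11906 and 10043 CPM (-1.24), with an overlap between untreated passage 5 and the treated libraries. Fam3b, Psca, Pigr and Gcnt3 made up the rest of the 10, with log2 fold changes of -1.26 to -0.82.

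Pgc was 1 of the 2 genes of that list called higher, beside the transcription factor gene Spdef (1.10; 0.73 and not called after the correction). This gene of the stomach proenzyme pepsinogen C had 2.22, 3.58 and 8.69 CPM in untreated and 24.6, 24.3 and 60.1 CPM in Rspo1-negative cells, without overlap and with passage 10 highest in both groups (log2 fold change 2.97, standard error 0.19, edgeR adjusted p = 2.35e-05). It was the single mucosal gene that rose in both fits. The Rspo1-positive libraries had 23, 17.9 and 51.3 CPM, and a difference between the gates was not detected (adjusted p = 0.270 by edgeR).

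Transcription factors of liver and duct were lower more often than higher. Of 28 tested 14 fell and 3 rose, 11 and 1 in both fits, where 20.0% of all genes tested were lower and 15.5% higher (7.95% and 5.79% in both fits). The number that rose was 1 without Rspo1-negative or untreated passage 10 and 0 without passage in the model, where 11 fell. The median of the list was -0.42 on the log2 scale both before and after the correction. Onecut2, a cut-homeodomain factor of liver and biliary development, had 447, 463 and 716 CPM in untreated and 84.7, 150.3 and 86.0 CPM in Rspo1-negative cells (log2 fold change -2.33, standard error 0.24, edgeR adjusted p = 0.000163). The correction brought it to -1.32, and its transcript has 42.6% GC. Its relative Onecut1, also called HNF6, had 25.5, 30.3 and 19.2 CPM against 8.65, 17 and 4.74 CPM (-1.43; -1.38 corrected), though 52.8% of its exon bases are shared with Gm20649. Hnf4g (-1.69), Klf4 (-1.01), Klf5 (-0.62) and Hnf4a (-0.47), all regulators of epithelial identity, fell in both fits. Foxa3, a pioneer factor of endoderm, was the 1 factor higher in both fits (1.04), and it lost the call without passage in the model (adjusted p = 0.0736 by edgeR), as did Hnf4a (adjusted p = 0.0986 by edgeR).

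Duct markers did not move as one: Krt19, Krt7 and Epcam showed small differences as fitted, while Sox9 rose. For Spp1 the authors' deposited table gives a log2 fold change of 0.55. The keratin genes Krt19 (3456, 3127 and 2711 CPM against 3232, 2069 and 2333 CPM) and Krt7 (3520, 2133 and 2357 CPM against 3640, 2184 and 2748 CPM) did not pass the test as fitted, nor did Epcam (-0.05, standard error 0.13). After the correction Krt19 was called lower (-0.65, adjusted p = 0.0209 by edgeR). These abundant epithelial markers match the labelled tissue. Among 33 tested biliary and progenitor genes 8 were higher and 8 lower, 4 and 3 in both fits, with a median log2 fold change of 0.09 (0.08 after the correction). All genes tested were 15.5% higher and 20.0% lower (5.79% and 7.95% in both fits), and genes of the list are given singly. Without untreated passage 6 the number higher was 13. Sox9, the transcription factor of duct progenitors, had 33.5, 61.7 and 74.0 CPM in untreated and 84.7, 106 and 161 CPM in Rspo1-negative cells (log2 fold change 1.07, standard error 0.14, edgeR adjusted p = 0.000345). Aqp1, the water channel of bile ducts, rose more, from 16.6, 27.7 and 89.9 CPM to 180.5, 189 and 476 CPM (2.84), with passage 10 highest in both groups and no overlap. Ggt1 (0.80) and Slc5a1 (0.78) rose, whereas the cilium channel gene Pkd2 (-0.87), the integrin gene Itga6 (-0.74) and the mucin gene Muc1 (-0.69) fell.

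Hepatocyte genes gave no common direction. Alb, the albumin gene, had only 9.05, 15.3 and 14.5 CPM in untreated and 9.34, 7.82 and 12.4 CPM in Rspo1-negative cells (log2 fold change -0.41, adjusted p = 0.202 by edgeR), and the gene of the plasma carrier transthyretin, Ttr, did not pass the test either (0.42). Of 17 tested, 3 were higher and 5 lower, 1 and 4 in both fits, with a median log2 fold change of -0.41 over all passages and of 0.52, -0.55 and 0.01 in passages 5, 6 and 10. Without Rspo1-negative passage 5 the numbers were 1 and 3, and without untreated passage 5 the number lower was also 3. The shares of all genes tested were 15.5% higher and 20.0% lower, 5.79% and 7.95% in both fits. Trf, the transferrin gene, was the one that rose in both fits, from 845, 2638 and 1572 CPM to 2724, 4436 and 4801 CPM (1.31). Among those that fell in both fits were Cyp3a13 (-1.04), a cytochrome P450 gene, and the plasma protein genes Apoh (-0.92) and Ambp (-0.86). Of the exon bases of Trf, 63.5% are shared with Gm20425.

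Some genes that are Wnt-dependent in hepatocytes around the central vein were higher. Of 14 pericentral genes tested 6 were higher, 5 of them in both fits, with a median log2 fold change of 0.36 (0.43 after the correction). None was called lower by edgeR, 0 at an unadjusted p under 0.05 and 0 by DESeq2. Among all genes tested 15.5% were higher and 20.0% lower, and 5.79% were higher in both fits. Lect2, a secreted liver protein and textbook beta-catenin target, had 0.0923, 0.167 and 0.0576 CPM in untreated cells, from 2 to 5 counts, and 1.52, 2.43 and 1.69 CPM in Rspo1-negative cells, from 40 to 59 counts. Its log2 fold change was 4.12. Lect2 and Rgn passed the count filter only through the groups in which they are high, so their calls are a description and no support for the list. Rgn, a calcium-binding liver protein, had 0.308, 0.201 and 0.345 CPM against 0.958, 1.73 and 1.61 CPM (2.28). Oat (0.59), Slc1a4 (0.69) and the nuclear receptor gene Nr1i3 (0.76) rose less, and Nr1i3 shares 74.8% of its exon bases with Tomm40l. Glul, the glutamine synthetase gene that defines the pericentral zone, did not pass the test (413, 543 and 218 CPM against 401, 326 and 248 CPM, adjusted p = 0.429 by edgeR). Periportal genes were not lower as a group: of 11 tested 5 were higher and 1 lower, and 3 were higher in both fits, with a median of 0.46. They were Arg1 (1.09), Agt (1.46) and Asl (0.67), and Agt lost its call without passage in the model (adjusted p = 0.285 by edgeR). Arg1 and Asl encode enzymes of the urea cycle.

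**Figure D5:**
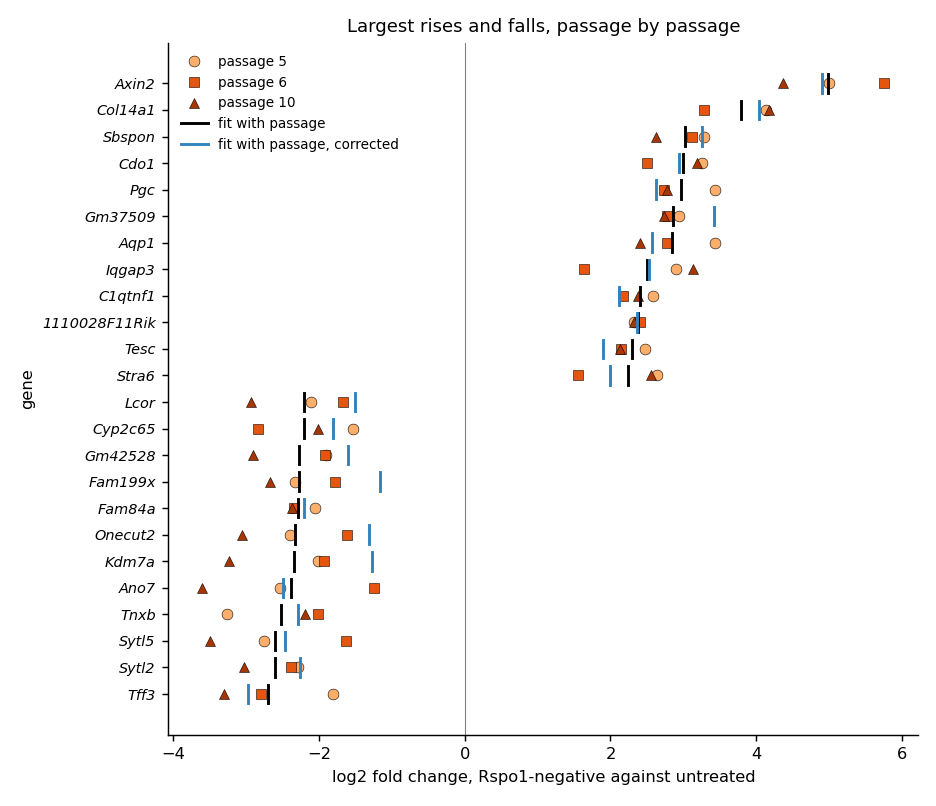
Log2 fold change of the 12 top rises and 12 top falls, for each passage (symbols), for the fit with passage (black line) and after the correction for GC content and length (blue line). The rule admits only genes with the same direction in every passage, so that agreement is set by the choice. The corrected falls of Kdm7a, Onecut2 and Fam199x are between -1.32 and -1.16.

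The largest changes were picked by a rule that takes the 12 top rises and 12 top falls among genes called in both fits, with a mean log2 CPM above 2 and the same direction in all 3 passages, which 745 higher and 1072 lower genes met. After Axin2 the largest rise was that of Col14a1, a collagen that sits on fibrils, with 0.677, 5.62 and 2.50 CPM in untreated and 12.9, 55.3 and 46.6 CPM in Rspo1-negative cells (log2 fold change 3.79, standard error 0.31, edgeR adjusted p = 6.60e-05). It was higher again in Rspo1-positive cells, at 56.8, 143 and 73.3 CPM (log2 difference 1.40, adjusted p = 0.00241 by edgeR). Cdo1, which encodes the cysteine dioxygenase that starts taurine synthesis, had 1.72, 3.81 and 2.01 CPM against 17, 21.8 and 18.9 CPM (2.99) and 18.1, 22.9 and 16.3 CPM in Rspo1-positive cells. Stra6, a membrane receptor for retinol uptake, had 13.5, 37.2 and 16.8 CPM against 84.4, 109.7 and 99.2 CPM (2.24). Sbspon (3.03) and the predicted gene Gm37509 (2.86) share 72.8% and 63.1% of their exon bases with each other and cannot be told apart without the strand. Pgc, Aqp1 and Iqgap3 are described above, and C1qtnf1 (2.4), 1110028F11Rik (2.38) and the calcium-binding protein gene Tesc (2.29) complete the 12. Tcf7 and Wfdc18, at 2.11 and 2.10, came next.

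Among the 12 falls were 2 synaptotagmin-like genes, whose products tether secretory vesicles through Rab27. Sytl2 had 64.9, 64.7 and 26.0 CPM in untreated and 13.2, 12.3 and 3.13 CPM in Rspo1-negative cells (log2 fold change -2.60, standard error 0.26, edgeR adjusted p = 0.000153), and Sytl5 had 25.7, 10.9 and 17.7 CPM against 3.75, 3.50 and 1.52 CPM (-2.60). Tnxb, the matrix protein tenascin X, had 66.8, 23 and 43.2 CPM against 6.87, 5.64 and 9.40 CPM (-2.52), and Ano7, of the anoctamin membrane proteins, had 14.8, 9.97 and 12.5 CPM against 2.50, 4.20 and 0.974 CPM (-2.39). Fam84a fell to a like level in all 3 passages, with 12.4, 13 and 13.9 CPM against 2.93, 2.51 and 2.63 CPM (-2.29, standard error 0.18), and the Rspo1-positive libraries were at a like level, 3.32, 2.29 and 2.74 CPM. The histone demethylase gene Kdm7a (-2.35), Onecut2, Fam199x (-2.28), Gm42528 (-2.28) and the corepressor gene Lcor (-2.20) have GC-poor transcripts, from 38.4% to 42.6%, and moved to between -1.60 and -1.16 with the correction. The cytochrome P450 gene Cyp2c65 (-2.21) and Tff3 complete the 12. Of the 24 genes of the rule 21 were called in all 14 alternative analyses. The rule already asks for a call with the correction, which is 1 of the 14, and all use the same libraries. That agreement is thus in large part set by the choice. Aqp1, Sytl2 and Cyp2c65 were called in 13 and lost the call in the fit that had the correction and no passage term, with adjusted p-values by edgeR of 0.0561, 0.0958 and 0.0631.

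Chromatin regulators were lower, in part along with transcript composition. Of 51 tested 28 were lower and 1 higher, and 16 were lower in both fits, with a median log2 fold change of -0.47 that was -0.26 after the correction. Among all genes tested 20.0% were lower and 15.5% higher, and 7.95% were lower in both fits. Leaving out 1 library moved the number of lower genes from 28 to between 17 and 40, the lowest without Rspo1-negative passage 5 or passage 10 and the highest without untreated passage 6. The acetyltransferase genes Ep300 (-1.22; -0.90 corrected) and Crebbp (-1.05; -0.72), and Kmt2c (-1.53; -0.91), which encodes a methyltransferase of enhancers, fell in both fits. Kdm5b lost its direction with the correction (-0.47 before and 0.03 after). Nuclear-retained RNAs had 5 of 18 lower and 1 higher, with a median of -0.61 (-0.20 after the correction), and the number lower ran from 3 without Rspo1-negative or untreated passage 5 to 10 without untreated passage 6. None of the 5 was called lower in both fits. Malat1 had 669, 703 and 664 CPM against 186, 646 and 309 CPM (-1.04; -0.24 corrected). The exception was Kcnq1ot1, an antisense RNA of an imprinted cluster, which rose from 21.2, 24.8 and 30.8 CPM to 43.6, 48.0 and 55.9 CPM (0.95; 2.26 corrected).

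In the next 4 lists the shares called were nearer to those of all genes tested than in the replication and mitosis lists (all genes: 15.5% higher and 20.0% lower, 5.79% and 7.95% in both fits), and single genes are given as examples. Of 21 YAP target genes tested 6 were lower and 1 higher, 4 and 1 in both fits, with a median of -0.28, and without Rspo1-negative passage 5 the number lower was 3. Crim1 (-0.99), F3 (-0.59) and Lats2 (-0.58) fell, Cyr61 rose (0.79) and Ctgf did not pass the test (0.42). Lats2 shares 42.4% of its exon bases with Gm49361. Of 34 interferon and antigen presentation genes 7 were higher and 1 lower, 3 and 1 in both fits, with a median of 0.20, and without Rspo1-negative passage 5 the number higher was 3. Ifitm3 had 4.74, 10.1 and 12.5 CPM in untreated and 19.2, 21 and 27.9 CPM in Rspo1-negative cells (1.38), and H2-T23 (0.81) and Tap1 (0.90), which acts in peptide loading, rose too. Genes that respond to tissue dissociation had 5 of 28 higher and 1 lower, with a median of 0.09 that was -0.08 after the correction. None of the 5 was higher in both fits, and without untreated passage 10 the number higher was 0. The heat shock gene Hspa1b was lower in both fits (243, 139 and 145 CPM against 114, 106 and 103 CPM, -0.65). Collagen and matrix genes had 7 higher and 4 lower of 33, 5 and 3 in both fits, with a corrected median of 0.05, again near the shares of all genes tested. Mmp7, a matrix protease made by duct epithelium, had 2628, 3725 and 2209 CPM against 5583, 5103 and 4794 CPM (0.88) and the laminin gene Lama3 had a log2 fold change of -0.96.

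Markers of other cell types were partly at or near 0 counts and partly expressed. Of 18 mesenchymal markers 7 were tested, with a summed level of 27.3, 24.0 and 13.4 CPM in untreated and 55.1, 73.9 and 24.7 CPM in Rspo1-negative libraries. Reln, which gave the largest part of this in the Rspo1-negative libraries, rose (18.3, 17.5 and 6.33 CPM against 46.1, 66.2 and 18.8 CPM, 1.63), while Col1a1 had 2 to 24 counts and Pdgfra 0 to 2. Of 16 endothelial markers 8 were tested and 4 were higher, 3 of them in both fits (2 without Rspo1-negative passage 5 or 10 or untreated passage 10 in the fit with passage). Their median was 0.72, and their sum was 21.4 to 34.1 CPM in untreated and 39.4 to 49.3 CPM in Rspo1-negative libraries. Esam, an adhesion molecule of endothelium, rose from 0.40, 0.535 and 0.835 CPM to 6.87, 6.67 and 7.83 CPM (3.59, standard error 0.25, edgeR adjusted p = 3.58e-05). Egfl7 (310 to 932 counts a library), Flt1 (140 to 629) and Stab1 (49 to 133) were expressed too, of which Egfl7 (1.18) and Stab1 (0.93) rose. Cdh5 was at 0 in all 6 libraries and Pecam1 had 2 to 6 counts. The part of such cells in these results was not tested beyond these levels. Of 18 immune markers 5 were tested and 0 were called in either direction by edgeR, 0 at an unadjusted p under 0.05 and 0 by DESeq2, and their summed level was 454 to 695 CPM in untreated and 496 to 608 CPM in Rspo1-negative libraries. Cd14 (10614 to 20346 counts a library), Csf1r (1034 to 1949), Cd68 (178 to 865) and Itgam (172 to 423) were expressed, while the leukocyte gene Ptprc had 0 to 5 counts, the macrophage gene Lyz2 0 to 4 and the T cell gene Cd4 0. Endocrine and tuft markers had 3 of 9 tested higher, all in both fits, and 1 of them without untreated passage 5. Without passage in the model 1 gene was called higher, and the median of the list was 0.12 (-0.06 after the correction). Among all genes tested 15.5% were higher, 5.79% in both fits. The 3 genes were the tuft cell genes Dclk1 (24.3, 62.1 and 42.2 CPM against 46.8, 89.3 and 74.3 CPM, 0.74) and Trpm5 (0.77) and the elastase gene Cela1 (0.82). Avil, of the same list, was tested and not called. The endocrine gene Chga had 0 to 7 counts.

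The authors' deposited table for the same comparison lists adjusted p-values for 14572 of 15807 genes, of which 4269 (29.3%) are under 0.05, 1788 higher and 2481 lower in Rspo1-negative cells. For Axin2 the authors' deposited table gives a log2 fold change of 5.06.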

How the data were processed

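Total RNA of sorted cells (100 ng a library) was sequenced as single-end 75 bp reads. The authors deposited raw counts per gene for each of the 9 libraries, per the file headers, together with CPM- and FPKM-like columns that were not used. The submitters' processing notes name Trimmomatic 0.35, FastQC 0.11.2, STAR 2.5.1b, featureCounts, DESeq2 and the build GRCm38. The strand setting and the annotation are not given in the sources used here, so reads of overlapping or antisense genes cannot be told apart. The authors' deposited comparison table gives log2 fold changes and adjusted p-values, per its header, beside a Wald score that was not analysed.

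Counts were tested in R 4.3.3 with edgeR 4.0.16 (TMM scaling, filterByExpr by group, glmQLFit and glmQLFTest), with group and passage as terms, on all 9 libraries, which share 1 estimate of the spread. Of 32137 genes, 17011 passed the filter. Adjusted p-values are Benjamini-Hochberg values over all genes tested, and CPM use TMM-scaled library sizes. The edgeR test gives no standard error. Those printed here are the size of the log2 fold change divided by the square root of the test's F value. Depth was 23423979 to 37351448 counts a library. The labels give the passages, so the numbers mark shared culture passages. Deviations from the group means of the same-passage libraries of the comparison correlated at 0.5, 0.123 and 0.413 for passages 5, 6 and 10. The correction is an offset per library, fitted as natural splines (5 df) of GC content and log length of the longest basic GENCODE M21 transcript, for 17001 genes. Data were simulated with 17011 genes, of which 100 were changed by 1 on the log2 scale and 100 by 2. With a GC slope added, the corrected fit recovered 93% and 100% of them, as did the fit without the correction. The corrected fit called 13 unchanged genes and the fit without the correction 1587. The simulated data had a straight GC slope, no length slope, no passage effect and few changed genes. They check the code on such a slope and do not show how well the correction works in the real data.

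Genes named as largest changes are the 12 top rises and 12 top falls called in both fits, with a mean log2 CPM above 2 and the same direction in 3 passages. Other genes come from 23 lists. The members and lists were chosen with earlier results of these data known. The 14 alternatives were RLE and upper-quartile scaling, no count filter, DESeq2 1.42.0, the comparison's 6 libraries alone, no passage term, the correction with and without passage, and leaving out each of the 6 libraries.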

Additional observations from a re-analysis of the deposited data

How the results depend on the processing

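The 6039 calls became 3724 without the replicate block for passage, 3203 with the GC and length correction and 1041 with the correction and no replicate block. Genes called higher numbered 1361, 1549 and 508 in those 3 analyses and 1635 in the 6 libraries alone, and genes called lower numbered 2363, 1654 and 533. All 3724 genes called without the block were also called with it. Leaving out 1 library gave 3269 to 7385 calls, 1087 to 3393 higher and 2074 to 3992 lower, and a correlation of the fold change with GC content of 0.439 to 0.555. That correlation was 0.330 with no count filter, 0.0250 with the correction and 0.0211 with the correction and no block. Scaling moved the median of all genes by at most 0.08 (log2). With the correction 5 list genes changed direction, first with and then without the block: Fzd3 (-0.60) to 0.53 and 0.51, Ehf (-0.49) to 0.15 and 0.14, Csnk1a1 (-0.50) to 0.04 and 0.05, Kdm5b (-0.47) to 0.03 and 0.03, and Pkhd1 (-0.44) to 0.17 and 0.21. Why was not tested beyond the GC content and length that the correction uses. Ascl2, Lgr5, Lect2 and Rgn rest on few untreated counts, which limits the precision of their folds.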
